A study of Mus musculus with 743 samples.

Results

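Intermediate filaments are fibres of the cytoskeleton and, as lamins, of the inner face of the nuclear envelope. Their genes were followed here in single Schwann cells (SCs) of the mouse sciatic nerve at postnatal day 1. The members were 7 genes listed by family, out of 25700 genes in the count table. Vim, Nes, Gfap and Nefl encode filament proteins of the cytoplasm, and Lmna, Lmnb1 and Lmnb2 the nuclear lamins. Of the 7, 6 had reads and passed the filter on low counts, and Gfap had none.

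All cells came from C57bl/6J pups that carried P0Cre-/+, ReYFP Tg/+ and βAct-DsRed Tg/+. Cre, driven by a promoter of the SC lineage, switches on eYFP for good, so eYFP also marks any other cell that descends from one that once made Cre. The dsRed reporter marks all cells. Cells positive for eYFP were sorted 1 per well after enzymatic dissociation of the nerves. Their RNA was copied and amplified by Smart-seq2, which covers whole transcripts and here carried no molecular identifiers. The 2 plates (plate 1 and plate 2) each held cells from a pool of their own, to which male and female animals contributed equally, and the plate was the replicate (n = 2).

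Of 743 wells, 621 had at least 1500 detected genes and were kept. Cells with at least 50 CPM (counts of a gene scaled to the total count of the cell, as counts-per-million) of Mki67 and Top2a together, genes of dividing cells, were called cycling, and there were 53 on plate 1 and 57 on plate 2. Cells below that limit with at least 50 CPM of Ncmap, a myelin-associated gene, were called promyelinating and numbered 59 and 60. The remaining 175 and 217 were called other. The 1 cell that met both rules counted as cycling. Median reads per cell ran from 701288 to 950150 over the 6 combinations of class and plate, and median detected genes from 2775 to 3690, lowest in other cells on both plates.

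The classes were checked with genes the rules did not use, from lists chosen with earlier results of these data known. Of 7 further cell cycle genes, 6 were higher in cycling than in other cells, where 0.895% of all genes tested were. Of 11 myelin genes 8 were higher in promyelinating than in other cells, where 0.497% of all genes tested were. The SC markers Sox10, Erbb3 and S100b had reads in 82.4%, 82.4% and 54.1% of cells. Markers of other cell types summed, per class and plate, to at most 33.4 CPM for 7 neuron genes, 2.91 for 5 endothelial genes, 56.8 for 4 mural genes, 20.7 for 4 immune genes and 20.1 for 4 melanocyte genes. Of the mural genes, Pdgfrb had reads in 8.53% of cells. Its level was 0 CPM in cycling cells of both plates, 43.7 and 13.8 in promyelinating and 20.7 and 37.8 in other cells. It was lower in cycling than in other and promyelinating cells (edgeR adjusted p = 0.00976 and 0.00338), where 0.113% and 2.12% of all genes tested were. The 5 fibroblast genes summed to between 2677 and 4509 CPM, through Col1a1 and Col1a2, which had reads in 99.8% and 100% of cells. Pdgfra had no read in any kept cell, and Dcn and Lum had reads in 4.03% and 0.483% of them.

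As background, vimentin (Vim) is the filament of mesenchymal and many immature cells and is made by SCs from early stages. Nestin (Nes) is a long filament protein of precursor cells that assembles together with vimentin. Glial fibrillary acidic protein (Gfap) is a filament of astrocytes and, in nerve, of SCs that do not myelinate. The neurofilament light chain (Nefl) is a core subunit of axonal filaments. Lmna encodes lamins A and C by alternative splicing, so that a count per gene cannot tell them apart. Lmnb1 and Lmnb2 encode the B-type lamins, which a lipid tail holds at the inner nuclear membrane.

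In the mouse genome (GRCm38) Vim lies on chromosome 2 (13573927 to 13582826), Nes and Lmna on chromosome 3 (87971078 to 87980451 and 88480147 to 88509956), Lmnb2 on chromosome 10 (80901203 to 80918245), Gfap on chromosome 11 (102887336 to 102900912) and Nefl on chromosome 14 (68083863 to 68089095).

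Per exon length the members ran from an abundant transcript to one that was not seen. Over all kept cells Vim stood at 526 RPKM (reads per kilobase of exon, scaled to depth as CPM) on plate 1 and 385 on plate 2. Lmna stood at 105 and 121 RPKM, and Nes at 12.5 and 13.3. Among 15922 genes with reads and an exon length, Vim ranked at place 107, Lmna at 614 and Nes at 3413 by the mean of the plates. Lmnb2 had 5.12 and 3.44 RPKM and Lmnb1 3.85 and 3.26, and these neighbours in the order did not differ beyond their spread over plates. Nefl was the lowest of the genes with reads, at 0.721 and 1.39 RPKM. At every other step of this order the plates of neighbouring genes did not overlap.

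Vim and Lmna were found in nearly every cell, and the remaining members in a minority. Vim had reads in 617 of 621 cells and Lmna in 605. Nes had reads in 212 cells, Lmnb1 in 85, Lmnb2 in 67 and Nefl in 16. Without molecular identifiers, the reads of a gene in a cell are not independent molecules, so intervals on counts and shares cover counting error only.

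**Figure D1:**
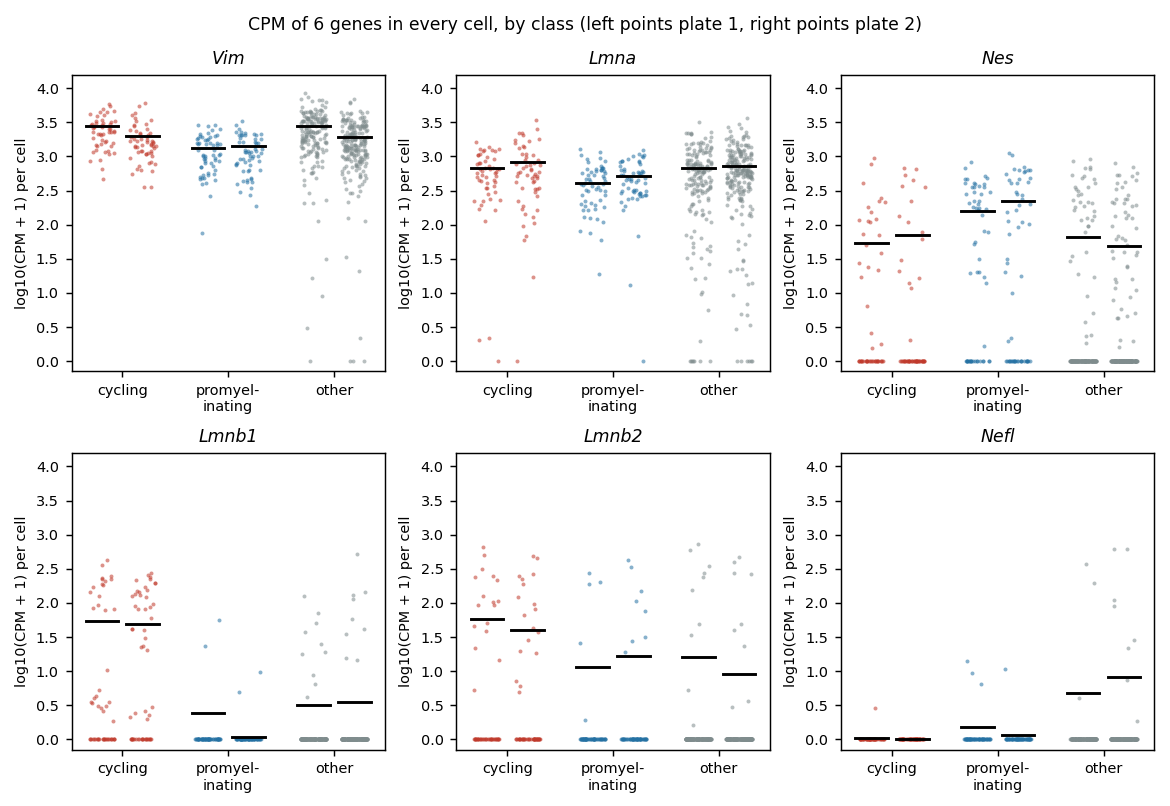
Each point is 1 cell, with its log10(CPM + 1) on the vertical axis, for cycling, promyelinating and other cells, with plate 1 on the left and plate 2 on the right of each class. Black bars mark the CPM of all cells of that class and plate summed. Vim and Lmna fill every class, Nes has reads in 75 of 119 promyelinating cells, and Lmnb1 has reads in 62 of 110 cycling cells.

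The sequences before a listed start are shown for Nes, Lmna and Lmnb2, 3 members with differing spread over the classes. The promoter reference held no entry for Lmnb1 and Nefl, and all 250 bases of the Vim window lay in an exon. The window of Gfap, which had no reads, is not shown. The sequences shown come from RefSeq (GRCm38.p6) and are written 5′ to 3′ on the strand of the gene. They leave out bases that the annotation places in an exon. Capitals mark the GC box, GGGCGG or its reverse complement CCGCCC. The stretch for Nes is chr3:87970843-87971077 (plus strand), that for Lmna chr3:88503387-88503602 (minus strand) and that for Lmnb2 chr10:80918246-80918495 (minus strand). The stretches for Nes and Lmnb2 adjoin the annotated 5′ ends of their genes. That for Lmna lies inside the gene, whose annotated 5′ end is at 88509956, so it precedes an internal start.
Nes: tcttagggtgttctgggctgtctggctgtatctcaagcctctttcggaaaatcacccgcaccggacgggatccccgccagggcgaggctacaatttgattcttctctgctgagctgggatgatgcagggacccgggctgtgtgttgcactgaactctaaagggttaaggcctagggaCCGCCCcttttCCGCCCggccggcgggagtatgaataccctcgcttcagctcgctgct
Lmna: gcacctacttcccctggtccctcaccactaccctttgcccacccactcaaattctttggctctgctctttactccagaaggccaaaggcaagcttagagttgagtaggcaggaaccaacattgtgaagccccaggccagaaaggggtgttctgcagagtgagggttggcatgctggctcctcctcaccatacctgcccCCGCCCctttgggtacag
Lmnb2: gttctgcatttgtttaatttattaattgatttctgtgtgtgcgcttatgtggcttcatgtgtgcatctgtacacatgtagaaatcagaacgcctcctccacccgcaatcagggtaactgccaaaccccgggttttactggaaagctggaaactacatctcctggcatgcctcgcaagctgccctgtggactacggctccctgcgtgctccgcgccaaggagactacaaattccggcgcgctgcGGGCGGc
In the 250 bases before the RefSeq start, searched on both strands, Nes held 2 GC boxes, at 73 and 62 bases before the start. Lmna held 1, at 52 bases, and Lmnb2 held 1, at 7 bases. The CCAAT box was in none of these 3 windows. The CHR element, spelled TTTGAA, was not found in them. The same held for the AP-1 site, spelled TGACTCA, and for the TATA box, spelled TATAAA. Of 32851 promoter windows of the same length, 32.7% held a GC box, 33.8% a CCAAT box, 16% a CHR element, 4.46% an AP-1 site and 12.4% a TATA box. Lmna and Lmnb2 each had a further listed start whose window is not shown, and the GC box was not found in either of those. The further window of Lmna held 1 CCAAT box, at 131 bases before its start.

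Vimentin was lower in promyelinating cells on both plates, by an amount that did not pass the test without the plate in the model. Summed over cells, its level in promyelinating cells was 1326 CPM on plate 1 and 1411 on plate 2. In cycling cells it was 2751 and 1995 CPM, and in other cells 2801 and 1904. The promyelinating sums lay below all 4 sums of the remaining classes, while cycling and other cells differed less from each other than the plates did. The median cell followed the same order, at 1062 and 1134 CPM in promyelinating cells against 2254 and 1503 in other cells. In the fit across 13292 genes (edgeR quasi-likelihood, Benjamini-Hochberg adjustment) the log2 fold change of promyelinating against other cells was -0.71 ± 0.24 (SE, adjusted p = 0.288). Cycling against promyelinating cells gave 0.85 ± 0.24 (adjusted p = 0.0877). The classes of a plate come from the same mice, and with the plate as a block the latter difference passed (adjusted p = 0.0309) while the former did not (adjusted p = 0.124). Cycling against other cells gave 0.15 ± 0.24 (adjusted p = 0.932).

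Other signals moved along with the lower Vim level. The 8 dissociation response genes summed to 2205 and 2418 CPM in promyelinating cells, against 5842 and 6380 in other and 4726 and 7160 in cycling cells. Of the 8, 4 (Fos, Egr1, Atf3, Ier2) were lower in promyelinating than in other cells, where 1.29% of all genes tested were. In cycling against promyelinating cells 5 of the 8 were higher, where 3.83% of all genes tested were. The 5 fibroblast genes summed to 2677 and 2901 CPM in promyelinating, 4509 and 4377 in other and 3473 and 4440 in cycling cells. Of these 5, Col1a1 was called higher in cycling than in promyelinating cells at 0.93 ± 0.21 (edgeR adjusted p = 0.0357). Col1a2 went the same way without a call, at 0.46 ± 0.15 (edgeR adjusted p = 0.129). Dcn went the opposite way, with 0 and 0.577 CPM in cycling and 26.58 and 19.01 in promyelinating cells. Its log2 fold change was -6.28 ± 1.74, also without a call (edgeR adjusted p = 0.0806). Pdgfra had no read in any class. The part of either list in the Vim values was not tested.

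The genes most like Vim over single cells were Ptn (r = 0.35 and 0.24), Col3a1 (0.29 and 0.25) and Scn7a (0.27 and 0.23). Here and below, r is the correlation of log2(CPM + 1) over the 287 cells of plate 1 and the 334 cells of plate 2, ranked by its mean among 7496 genes found in at least 10% of cells on each plate. Ptn encodes the growth factor pleiotrophin, Col3a1 a fibrillar collagen and Scn7a a sodium channel family protein. All 3 correlations were weak, and cells share library chemistry and depth, so each r only describes these cells. Among the members, Vim had r between -0.05 and 0.12 with Nes, Lmna, Lmnb1 and Lmnb2.

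Nestin was the member that was higher in promyelinating cells. Its summed level there was 155 CPM on plate 1 and 224 on plate 2, against 64.1 and 47.2 in other cells and 52.3 and 70.2 in cycling cells. The 2 promyelinating sums lay above the 4 remaining sums. Against other cells its log2 fold change was 1.84 ± 0.36 (3.59-fold, adjusted p = 0.0446), with log2 ratios of 1.28 on plate 1 and 2.25 on plate 2. Nes was the 1 member of 6 tested that was called higher in promyelinating than in other cells, where 0.497% of all genes tested were, and 0 of 6 were called lower, where 1.29% of all genes were.

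The Nes call lay close to the threshold. With the plate as a block the log2 fold change was 1.82 and the adjusted p was 0.0516. When any 1 of the 6 sums was left out, those of cycling cells included, the adjusted p rose to between 0.0544 and 0.325. DESeq2 and limma, run as alternatives, both called it (adjusted p = 2.04e-05 and 0.0128). Against cycling cells the difference was of like size. The log2 fold change of cycling against promyelinating cells was -1.58 ± 0.36 (adjusted p = 0.0380), with log2 ratios of -1.57 and -1.67 on the plates, and it was called with the plate as a block too (adjusted p = 0.0411). Cycling against other cells gave 0.26 ± 0.35 (adjusted p = 0.898), with a different sign on each plate.

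The higher level of Nes went with more cells that had the transcript. Reads were found in 66.1% of promyelinating cells on plate 1 (95% exact binomial interval 52.6 to 77.9) and in 60.0% on plate 2 (46.5 to 72.4). In other cells the shares were 24% (17.9 to 31.0) and 24.9% (19.3 to 31.2). Cycling cells lay between, at 45.3% (31.6 to 59.6) and 29.8% (18.4 to 43.4). After each cell was thinned to 100000 reads the shares were 63.8% and 61.8% in promyelinating, 22.6% and 19.7% in other and 40.4% and 26.4% in cycling cells. Cells with more detected genes had somewhat more Nes (r = 0.35 and 0.23), and promyelinating cells had more detected genes than other cells. In sums of the thinned cells the fit again called Nes in promyelinating against other cells (adjusted p = 0.0112), while among cells with at least 2500 detected genes it did not (adjusted p = 0.126), at a log2 fold change of 1.65.

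Nes levels of at least 100 CPM were reached in 54 promyelinating, 53 other and 21 cycling cells. Promyelinating cells held 45.1% of all Nes reads, other cells 42.0% and cycling cells 12.9%. In the 36 promyelinating cells of plate 2 with a read the median was 280 CPM, and in the 54 such other cells of that plate it was 77.1 CPM. On plate 1 the medians of cells with a read were 220 CPM in promyelinating and 184 CPM in other cells.

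Over single cells Nes was most like Emid1 (r = 0.40 and 0.34), Ncmap (0.36 and 0.38) and Pmp2 (0.34 and 0.38). Pmp2 encodes a lipid-binding protein of peripheral myelin, and Ncmap is the gene that defined the class, so its place here repeats the rule. Within promyelinating cells alone, over 59 and 60 cells, r of Nes with Ncmap was 0.38 and 0.35. Over 10 of the 11 myelin genes it ran from 0.0055 to 0.43 on plate 1 and from -0.12 to 0.28 on plate 2. Of these 10, Pmp22 was highest on both plates, at 0.43 and 0.28, and Cldn19 lay near 0, at 0.0055 and -0.022. With Egr2, the transcription factor of the myelin genes, r was 0.07 and -0.12. Relative to vimentin, its partner in the filament, Nes stood at a log2 ratio of reads of -3.09 and -2.66 in promyelinating cells, against -5.45 and -5.33 in other and -5.72 and -4.83 in cycling cells, so the promyelinating pair lay apart from the rest.

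**Figure D2:**
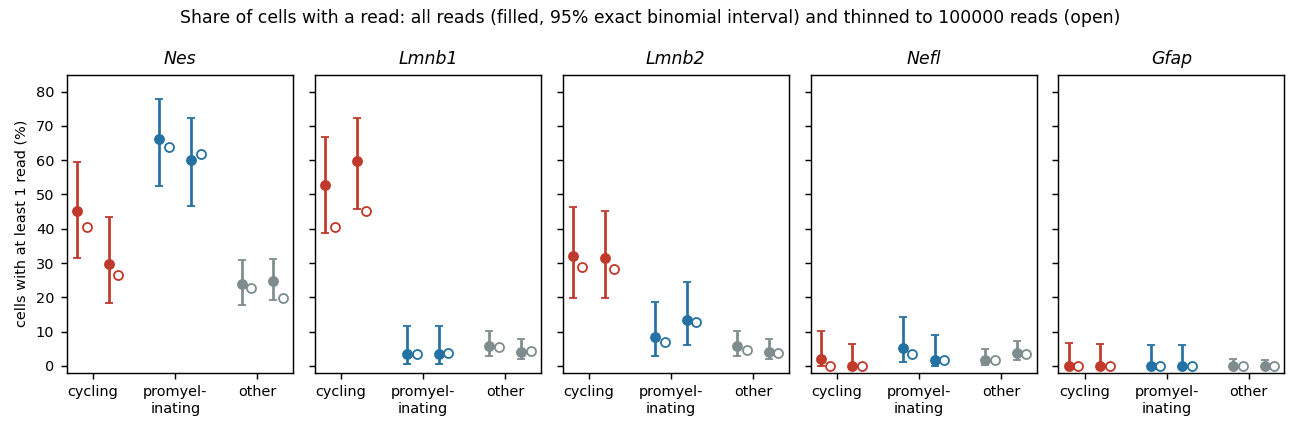
Filled points are the percentage of cells with at least 1 read, with 95% exact binomial intervals, for each class with plate 1 left and plate 2 right. Open points are the same after thinning to 100000 reads. Nes is highest in promyelinating cells at 66.1% and 60.0%, and Lmnb1 in cycling cells at 52.8% and 59.6%.

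Gfap and Nefl, filaments of glia that do not myelinate and of axons, were close to absent. Gfap had 0 reads in all 743 wells. A count of 0 of 621 kept cells puts the limit at 0.483% of such cells with a read, which concerns detection, takes cells as independent and sets no limit on expression below detection. With 529513453 reads in all, 3 counts correspond to 0.00567 CPM over the cells together. In the table as a whole, 9528 genes had no read in any well. The annotation places Gm26668 over Gfap on the opposite strand, and strand use in the counting is not stated.

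Nefl had reads in 16 cells, of which 11 were other, 4 promyelinating and 1 cycling. Its summed level was 3.77 and 7.32 CPM in other cells, 0.518 and 0.154 in promyelinating cells and 0.0421 and 0 in cycling cells. Of its 1905 reads, 89.7% lay in 4 other cells with more than 100 reads each, 2 on each plate, at 196 and 371 CPM on plate 1 and 609 and 614 on plate 2. Other cells thus had 1868 reads and cycling cells 2, a CPM ratio of 260 (71.8 to 2146 from counting error). That range takes reads as independent, whereas most of them came from 4 cells, and the share of cells with a read was 1.71% and 3.69% in other against 1.89% and 0% in cycling cells. The edgeR fit gave no call for Nefl in any of the 3 contrasts (adjusted p from 0.439 to 0.650).

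Cells with Nefl carried SC transcripts. All 16 had reads of Sox10, and 14 of 16 had no read of any of 7 neuron markers. The exceptions were 1 cell with 327 reads of Stmn2 and 1 with 1 read of Uchl1. Over all kept cells Sox10 had reads in 82.4%. Of the 7 neuron markers 3 had no read in any kept cell, and the remaining 4 were found in 0.805% to 11.6% of cells. The counts in the 16 cells were not tested against these shares. Nefm, which encodes the medium chain, had reads in 3 of the 16, at 502 and 151 reads in 2 of the 4 high cells and at 2 reads in a promyelinating cell. Nefh, the heavy chain, had 356 reads in another promyelinating cell and at most 9 in any of the rest. Nefl and Nefm overlap on opposite strands in the annotation, so without the strand their reads cannot be told apart with certainty where they overlap.

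The lamins differed by type. Lmna was read in nearly all cells of every class, while both B-type genes were read in a minority of cells, with the highest shares in cycling cells. Lmna had 666 and 816 CPM in cycling cells, 667 and 730 in other cells and 408 and 521 in promyelinating cells. As for Vim, the promyelinating sums lay below all 4 remaining sums. The log2 fold change of promyelinating against other cells was -0.51 ± 0.20 (edgeR adjusted p = 0.369), and that of cycling against promyelinating cells 0.72 ± 0.20 (adjusted p = 0.0765). With the plate as a block the latter passed (adjusted p = 0.0224) and the former did not (adjusted p = 0.149). The dissociation response genes given above moved the same way, and their part was not tested here either. Cycling and other cells differed by 0.21 ± 0.20 (adjusted p = 0.803).

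Lmna was read in 97.2% of cells on plate 1 and 97.6% on plate 2, and its median cell ranged over classes and plates from 389 to 587 CPM. The genes most like it were Cnn3 (r = 0.27 and 0.22), Gm42928 (0.28 and 0.19) and Gnb1 (0.29 and 0.17), all weak. Cnn3 encodes an actin-binding calponin and Gnb1 a G protein subunit.

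Lmnb1 had the widest range between classes of the members found in over 10% of cells. Its summed level in cycling cells was 53.3 CPM on plate 1 and 47.9 on plate 2. In other cells it was 2.24 and 2.53 CPM, and in promyelinating cells 1.40 and 0.0960. The cycling sums were thus far above the remaining 4. Reads were found in 52.8% (38.6 to 66.7) and 59.6% (45.8 to 72.4) of cycling cells and in 5.71% (2.77 to 10.3) and 4.15% (1.91 to 7.73) of other cells. In promyelinating cells the shares were 3.39% (0.413 to 11.7) and 3.33% (0.406 to 11.5). Thinned to 100000 reads, the shares in cycling cells were 40.4% and 45.3%. Cycling cells, 110 of 621, held 84.3% of all Lmnb1 reads.

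In cycling against promyelinating cells the log2 fold change of Lmnb1 was 6.13 ± 1.29 (69.9-fold, edgeR adjusted p = 0.0291), with log2 ratios of 5.25 and 8.96 on the plates. The size of this fold depends on 78 reads in 4 promyelinating cells, and without the 3 cells with the most reads in each sum, which leaves promyelinating cells at 0 reads, the fitted value was 14.67. Lmnb1 was the 1 member of 6 called higher in cycling than in promyelinating cells, where 3.83% of all genes tested were, and Nes the 1 member called lower, where 2.12% were. With the plate as a block 4 members were called in either direction, Lmna, Lmnb1, Nes and Vim, where 6.66% of all genes were. Lmnb1 was called under all 13 processing settings (adjusted p from 2.22e-07 to 0.0367). It was not called when the cycling sum of plate 1 (adjusted p = 0.10) or of plate 2 (0.0824) was left out. Nes in this contrast was not called when any 1 of the 6 sums was left out (adjusted p from 0.0514 to 0.191).

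In cycling against other cells the log2 fold change of Lmnb1 was 4.54 ± 1.19 (23.3-fold) and did not pass in edgeR (adjusted p = 0.196, unadjusted p = 0.00469), although the plates gave 4.57 and 4.24. Of 6 members, 0 were called higher in cycling than in other cells, where 0.895% of all genes were, and 0 lower, where 0.113% were. At an unadjusted p under 0.05 in edgeR there were 3 members, Lmnb1, Lmnb2 and Nefl, where 10.1% of all genes were. DESeq2 called the same 3, where it called 6.12% of all genes, and gave Lmnb1 an adjusted p of 0.000544. Limma on the mean CPM over cells called 0 members, where it called 1.61% of all genes. Over the 13 settings the adjusted p of Lmnb1 ran from 0.000544 to 0.241, and 3 settings called it. It was also called when the promyelinating sum of plate 1 or of plate 2 was left out of the fit (adjusted p = 0.0332 and 0.0307). Promyelinating against other cells gave Lmnb1 a log2 fold change of -1.59 ± 1.06 (adjusted p = 0.671).

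Among the 62 cycling cells with an Lmnb1 read, 18 were under 10 CPM, 44 at or above it, and 27 at or above 100 CPM. Over all cells Lmnb1 was most like Ccnb1 (r = 0.60 and 0.64), Cdca8 (0.59 and 0.57) and Kif22 (0.51 and 0.64). Ccnb1 encodes cyclin B1, Cdca8 the chromosomal passenger protein borealin and Kif22 a chromosome-bound kinesin. These r contain the difference between cycling and remaining cells. Within cycling cells alone, over 53 and 57 cells, r with 7 cell cycle genes that the rule did not use ran from 0.24 to 0.49, and was highest for Ccnb1 at 0.49 and 0.45.

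Lmnb2 leaned the same way with a smaller difference. Its summed level was 58.0 and 39.1 CPM in cycling cells, 10.4 and 16 in promyelinating cells and 15 and 8.01 in other cells. The cycling sums were the highest on both plates. Against other cells the log2 fold change was 2.21 ± 0.67 (edgeR adjusted p = 0.275), with 1.95 and 2.29 on the plates. Against promyelinating cells it was 1.94 ± 0.66 (adjusted p = 0.150). DESeq2 called both (adjusted p = 0.0149 and 0.0240). Promyelinating against other cells gave 0.27 ± 0.64 (adjusted p = 0.957), with a different sign on each plate.

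A few cells carried most Lmnb2 reads. The 3 cells with the most reads held 61.4% and 74.9% of them in cycling cells, 98.5% and 92.9% in promyelinating cells and 73.3% and 92.8% in other cells. Cycling cells held 46.7% of all Lmnb2 reads and other cells 39.1%. By share of cells the difference was plainer, at 32.1% and 31.6% of cycling cells against 5.71% and 4.15% of other and 8.47% and 13.3% of promyelinating cells. Thinned, the shares in cycling cells were 28.8% and 28.3%. Lmnb2 was most like Spc25 (r = 0.39 and 0.34), Cdca3 (0.36 and 0.35) and Ube2c (0.40 and 0.31), which act at the kinetochore, in mitotic entry and in the ubiquitin pathway of mitotic exit. As for Lmnb1, these r contain the difference between cycling and remaining cells. Within cycling cells alone, r of Lmnb2 with the 7 cell cycle genes ran from 0.036 to 0.35 on plate 1. On plate 2 it ran from 0.19 to 0.32.

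Most cycling cells with Lmnb2 reads also had reads of Lmnb1, 12 of 17 on plate 1 and 13 of 18 on plate 2. On plate 1, 16 further cycling cells had reads of Lmnb1 alone, 5 of Lmnb2 alone and 20 of neither. On plate 2 the numbers were 21, 5 and 18. Over all cells r between the genes was 0.23 and 0.31, and r with the number of detected genes was 0.29 and 0.28 for Lmnb1 and 0.20 and 0.31 for Lmnb2.

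Per exon length, B-type transcripts made up a larger part of lamin RNA in cycling cells. They were 21.7% and 15.3% of it there, 3.99% and 4.04% in promyelinating cells and 3.59% and 2.13% in other cells. The cycling values did not overlap with the rest. Lmnb1 made up 12.4% and 9.81% in cycling cells and at most 0.670% elsewhere, and Lmnb2 9.29% and 5.52% in cycling cells and at most 4.01% elsewhere. The log2 ratio of Lmnb1 to Lmna reads was -3.64 and -4.09 in cycling cells and -8.22 and -8.17 in other cells.

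**Figure D3:**
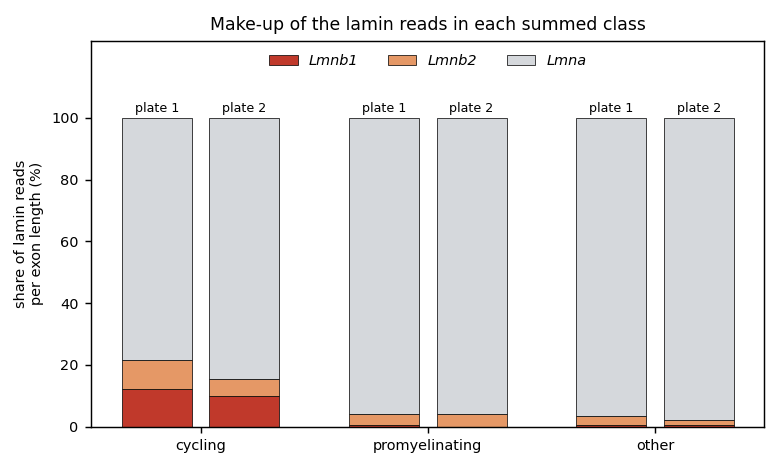
Make-up of lamin transcripts in percent of reads per exon length, for each class and plate, split into Lmna, Lmnb1 and Lmnb2. The B-type part is 21.7% and 15.3% in cycling cells and at most 4.04% in the remaining classes.

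**Figure D4:**
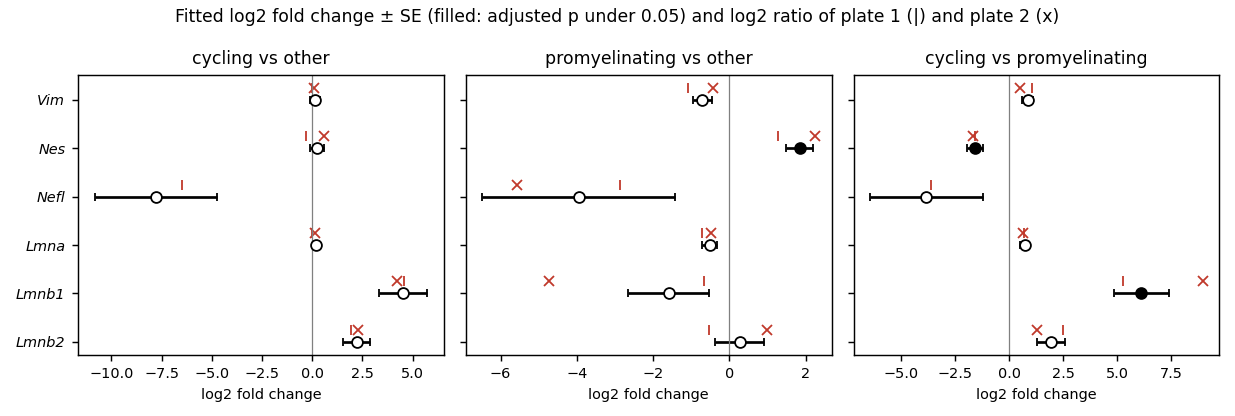
Log2 fold changes of the 6 members with reads in each contrast from the edgeR fit, as black circles with bars of 1 SE, filled where the adjusted p is under 0.05. Red marks are the log2 ratios of plate 1 (bar) and plate 2 (cross). Lmnb1 at 6.13 and Nes at -1.58 are filled in cycling against promyelinating cells, and Nes at 1.84 in promyelinating against other cells.

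Genes of proteins that work with the lamins were counted from lists. Of 10 inner nuclear membrane and lamina partners, 2 were higher in cycling than in other cells, where 0.895% of all genes tested were. Lower were 0, where 0.113% of all genes were, and the median log2 fold change was 0.08 against -0.07 over all genes. Tmpo, which encodes the lamina-associated polypeptides 2, had 335 and 291 CPM in cycling, 39.8 and 14.1 in promyelinating and 34.6 and 45.4 in other cells, and rose by 3.11 ± 0.50 on the log2 scale against other cells (edgeR adjusted p = 0.0270). Nemp1, an inner nuclear membrane protein gene, rose by 3.56 ± 0.63 (adjusted p = 0.0439), with 65.3 and 48.4 CPM in cycling and 5.95 and 4.63 in other cells. Promyelinating cells had 40.1 and 21 CPM of Nemp1 (2.6 ± 0.61 against other cells, adjusted p = 0.0920), and cycling and promyelinating cells differed by 0.95 ± 0.58 (adjusted p = 0.392). In cycling against promyelinating cells 2 of 10 were higher, where 3.83% of all genes were, and 0 lower, where 2.12% were. The median was 0.58 against 0.02 over all genes. The 2 higher genes were Tmpo (3.59 ± 0.51, edgeR adjusted p = 0.00471) and Banf1 (1.17 ± 0.21, adjusted p = 0.0153). Banf1 encodes a protein that ties DNA to the nuclear envelope. In promyelinating against other cells none of the 10 passed in edgeR, with a median of -0.16 against -0.07. Of all genes tested, 0.497% were called higher and 1.29% lower there.

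The list for the LINC complex, which joins the lamina to the cytoskeleton, also held genes of torsin A and its partners, which are not part of that complex. This list had 0 of 8 genes called by edgeR in each of the 3 contrasts. Its medians were -0.14 in cycling against other, 0.30 in promyelinating against other and -0.40 in cycling against promyelinating cells. Between 0.113% and 3.83% of all genes tested were called per contrast and direction, so 0 of 8 says little about these genes. Of 5 genes of lamin tail processing, Fnta was the 1 called. It encodes the alpha subunit of farnesyltransferase, which is shared with another prenyl transferase, and had 691 and 565 CPM in cycling, 1793 and 2212 in promyelinating and 831 and 1055 in other cells. It was higher in promyelinating than in other cells by 1.17 ± 0.20 (edgeR adjusted p = 0.0269) and lower in cycling than in promyelinating cells at -1.62 ± 0.21 (adjusted p = 0.00286). Of all genes tested, 0.497% were called in the former direction and 2.12% in the latter. Zmpste24, the protease that matures lamin A, was not called in any contrast.

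**Figure D5:**
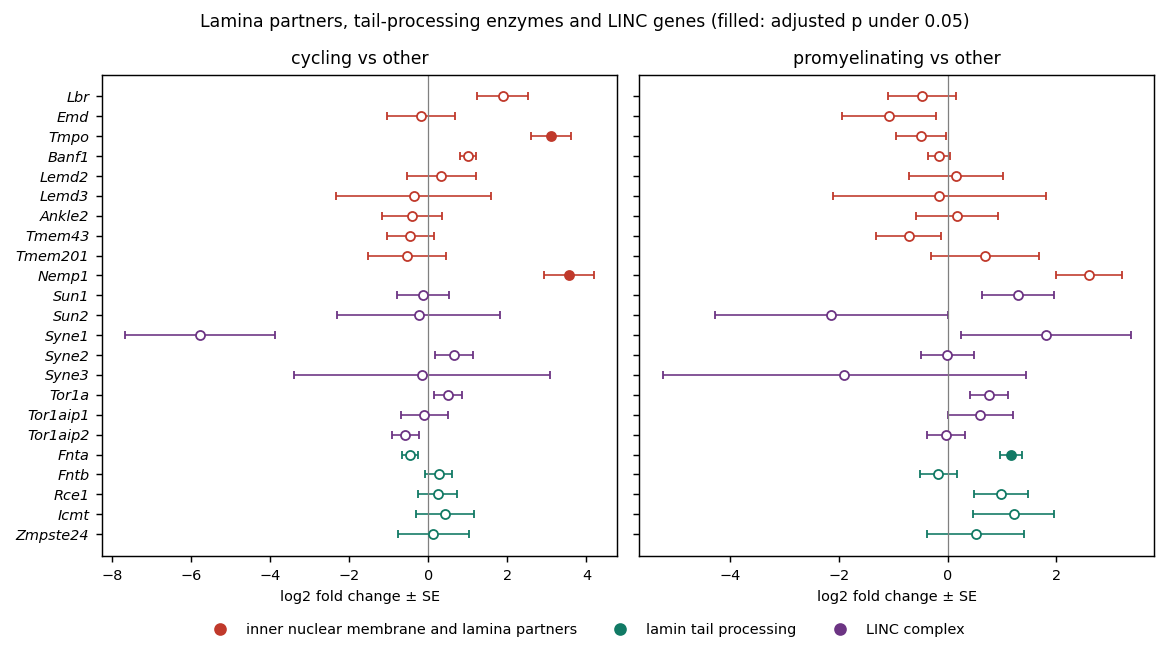
Fitted log2 fold changes with bars of 1 SE for lamina partners (red), the LINC list (purple) and lamin tail processing (green), in cycling against other cells on the left and promyelinating against other cells on the right. Filled points have an edgeR adjusted p under 0.05. These are Tmpo at 3.11 and Nemp1 at 3.56 on the left and Fnta at 1.17 on the right.

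Small heat shock proteins that bind intermediate filaments gave 3 genes with reads, and Hspb8 had none. Cryab, which encodes alpha B-crystallin, had 1904 and 1846 CPM in cycling, 3606 and 3713 in promyelinating and 2386 and 2072 in other cells. It was higher in promyelinating than in other cells by 0.79 ± 0.15 (edgeR adjusted p = 0.0390) and lower in cycling than in promyelinating cells at -0.91 ± 0.15 (adjusted p = 0.00957). Hspb6 went the opposite way in the latter contrast, at 4.77 ± 0.77 (adjusted p = 0.00895).

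The rest of the filament family was scarce. Of 7 further type III and IV genes Des had no read, and each of the remaining 6 was found in at most 4.67% of cells. Of these 7, 5 were tested and 0 called by edgeR in any contrast. Of 11 keratins 8 had no read, and Krt10, found in 33.2% of cells, was the 1 tested and was not called. Both beaded filament genes were tested and 0 called. Of 7 plakins and linkers, which tie filaments to junctions and to other fibres, 4 were tested and 0 called. Among them Dst was found in 90.8% of cells, Plec in 46.5% and Macf1 in 19.2%, and Macf1 came closest, at 2.79 ± 0.68 in cycling against promyelinating cells (adjusted p = 0.0503). As between 0.113% and 3.83% of all genes were called per contrast and direction, counts of 0 in such short lists say little about them.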

How the data were processed

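The authors deposited raw read counts per gene and well for cells of both plates, with no normalisation and no molecular identifiers. The submitters' processing notes name bcl2fastq, STAR 2.6.1c, featureCounts and GRCm38.p5, without roles. The study's methods name a human assembly, while the gene identifiers in the table are those of mouse. Strand use was not stated. Of 25700 identifiers 25664 matched a gene name, and 32 share a symbol with another. All columns belonged to a sample, and no wells were identical.

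Wells with fewer than 1500 detected genes (122) were set aside, and no doublet caller was run. Median depth per class and plate was 701288 to 950150 reads per cell. Counts were summed per class and plate into 6 sums and fitted together in edgeR 4.0.16 (TMM, filterByExpr, robust quasi-likelihood, class as the only term; R 4.3.3), with Benjamini-Hochberg adjustment over the 13292 genes of each contrast and a threshold of 0.05. The SE is the fold change divided by the square root of F. With 2 plates per class, p-values rest on the spread between plates, pooled over the classes and moderated across genes. With class as the only term, the main fit leaves the pairing by plate out. Classes of a plate share mice, and their deviations from the class means correlated at 0.23, 0.19 and 0.13 over 3705 genes that averaged 50 CPM or more, so the plate pairs the sums. Scripts were tested on simulated data. Alternatives were the plate as a block, DESeq2 1.42.0, limma 3.58.1, other filters, size factors, thresholds, thinning to 100000 reads (594 cells) and leaving out cells, plates or sums. Exon lengths and positions came from GENCODE M21. Python 3.11.15 with pandas 2.3.3, numpy 2.4.6, scipy 1.17.1 and matplotlib 3.10.9 did the rest.

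The members and lists were chosen with earlier results of these data known. Genes named were the members, the 3 genes most like each member found in at least 10% of cells on each plate, up to 4 called genes per list, contrast and direction with the largest change, and the genes of the class rules. Sox10, Erbb3, Pdgfra, Dcn, Lum, Col1a2, Pmp22, Egr2, Cldn19, Hspb8, Des, Krt10, the plakins, Zmpste24, Gm26668 and the genes in cells with Nefl were named outside this rule, after their values were seen. Some genes of the lists are not reported here.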

Additional observations from a re-analysis of the deposited data

Results flagged for a closer look

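Wells with fewer than 1500 detected genes entered no comparison, yet some members had reads there above the level that a count of 0 allows. In these 122 wells with 20955228 reads in all, Vim had 74172 reads in 81 wells and Lmna 12441 reads in 36 wells. Nes had 1884 reads in 8 wells, all on plate 1, and Nefl 4 reads in 1 well. Lmnb2 had 1 read, and Lmnb1 and Gfap had none.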

How the results depend on the processing

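The number of members called moved with the setting. In cycling against other cells (0 called) DESeq2 called 3, no filter on low counts 1 and thinning 1, and leaving out 1 of the 6 sums gave 0 to 1. In promyelinating against other cells (1 called) the replicate block on plate, a class threshold of 200 CPM, a minimum of 2500 genes and leaving out the 3 cells with the most reads each gave 0, no filter gave 2, and leaving out any 1 sum gave 0 to 0. In cycling against promyelinating cells (2 called) the replicate block and no filter each gave 4, DESeq2 5, 200 CPM 3 (with Lmnb2) and a minimum of 2500 genes 1, and leaving out 1 sum gave 0 to 1. Leaving out single sums was chosen after seeing the data, and the lone sum of a class was then taken to vary like the rest. Among fold changes, Nes in cycling against other cells turned to -0.048 at 200 CPM and -0.24 without the 3 top cells, and Lmnb2 in promyelinating against other cells to -0.63 and -1.74. The cause was not tested. The block changed no call other than those of Vim, Lmna and Nes given above. Of the tested fold changes of members under the alternatives, 190 kept their direction and side of the threshold, 4 reversed, 14 gained and 5 lost the call. Of 34 ratios on 1 plate, which have no test, 4 had the other sign, those of Vim, Nes and Lmna in cycling against other and of Lmnb2 in promyelinating against other cells, all on plate 1. Without the 3 top cells, Lmnb1 moved from 6.13 to 14.67 in cycling against promyelinating, from 4.54 to 6.10 in cycling against other and from -1.59 to -8.58 in promyelinating against other cells, and Lmnb2 from 1.94 to 4.77 in cycling against promyelinating and from 2.21 to 3.03 in cycling against other cells. These fits with promyelinating cells at 0 Lmnb1 reads depend on the prior count. Nefl had no value without its 3 top cells.

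Genes called in all also moved. Cycling against other cells gave 134, and 103 to 813 under the alternatives (813 with DESeq2, 317 with no filter, 214 with limma, 210 thinned) and 60 to 146 with 1 sum left out. Promyelinating against other cells gave 238, and 222 to 1017 (1017 with DESeq2, 521 with no filter, 387 with limma, 371 thinned), with 120 to 221. Cycling against promyelinating cells gave 791, and 740 to 2313 (2313 with DESeq2, 1362 with limma, 1290 with no filter), with 445 to 630. With 2 plates, and few cells carrying Nefl and Lmnb2, precision for those genes is low.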
